A study of Mus musculus with 9 samples.

Results

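The genes described here set how iron leaves and enters liver cells. They are the hepcidin genes Hamp and Hamp2, the BMP ligand Bmp6, the iron sensors Hfe and Tfr2, the uptake receptor Tfrc, the iron exporter Slc40a1, the plasma proteins Trf and Cp, and the metalloreductase Steap4. Members were chosen by gene symbol, 10 of the 27945 genes with a count, and all 10 passed the filter on low counts. The study sequenced polyadenylated RNA of mouse liver in 9 libraries, 3 labelled treated, 3 model and 3 control. Its title speaks of liver damage by gefitinib, which inhibits the epidermal growth factor receptor. Beyond these words the labels state no agent, dose, time, age, sex, strain or genotype for any group, so how the treated and the model mice were handled is not known here. Separate animals per library are not stated either, and p-values thus cover the spread between libraries, which may be technical.

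Hepcidin is a peptide hormone made mainly by hepatocytes. It binds ferroportin, the product of Slc40a1 and the iron exporter of animal cells, and causes its degradation, so that less iron enters the blood. BMP ligands from sinusoidal endothelial cells, acting through SMAD proteins, and inflammatory cytokines, acting through STAT3, drive hepcidin transcription. Transferrin, from Trf, carries iron in the blood, and the receptor encoded by Tfrc takes it into cells. Messages of Tfrc and Slc40a1 carry iron-responsive elements, short hairpins bound by iron regulatory proteins when cellular iron is low, which stabilises the Tfrc message and blocks translation of the Slc40a1 message.

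Library totals lay between 56440871 and 60665156 estimated counts. Levels are given in CPM, counts scaled to TMM-adjusted library size, as mean ± SD of 3 libraries. A gene was called at an adjusted p under 0.05 in edgeR's quasi-likelihood test with Benjamini-Hochberg adjustment over the 18113 genes tested. The 3 comparisons share libraries and are not independent of each other. As a check of the labelled tissue, 6 hepatocyte markers summed to 63739 to 76001 CPM in treated livers, 79937 to 83294 CPM in model livers and 77258 to 89763 CPM in control livers. Markers of other cell types differed between libraries. Skeletal muscle markers, 8 in all, summed to 126.1 to 164.6 CPM in the treated libraries and 190.1 CPM in model library 1, but to at most 1.38 CPM in the other 5. Sinusoidal endothelial markers, 10 in all, summed to 78.7 to 120.5 CPM in treated, 151.5 to 170.8 CPM in model and 347.6 to 440.6 CPM in control livers.

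The start regions of both hepcidin genes and of Steap4 are shown because the hepcidin genes are near-identical copies that are hard to tell apart in short reads and because all 3 hold a match to a STAT-type motif. Each sequence is the 250 bases before the start, from RefSeq on GRCm38.p6, in the direction of transcription. Capitals mark matches to GGCGCC, the core of BMP-responsive SMAD sites, and to TTCNNNGAA, the STAT site pattern. Both patterns read the same on either strand and do not overlap each other here. Hamp lies at chr7:30944030-30944279 on the minus strand, Hamp2 at chr7:30924182-30924431 on the minus strand, and Steap4 at chr5:7960222-7960471 on the plus strand.
Hamp: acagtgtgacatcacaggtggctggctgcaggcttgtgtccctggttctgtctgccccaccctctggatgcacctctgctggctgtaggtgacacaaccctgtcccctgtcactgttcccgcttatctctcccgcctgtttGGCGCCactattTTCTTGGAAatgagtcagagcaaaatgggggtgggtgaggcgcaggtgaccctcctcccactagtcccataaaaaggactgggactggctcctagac
Hamp2: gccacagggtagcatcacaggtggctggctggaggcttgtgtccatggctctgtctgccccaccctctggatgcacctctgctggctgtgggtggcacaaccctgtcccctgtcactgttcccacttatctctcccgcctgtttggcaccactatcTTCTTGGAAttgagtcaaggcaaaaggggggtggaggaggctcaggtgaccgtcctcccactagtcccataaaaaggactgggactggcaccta
Steap4: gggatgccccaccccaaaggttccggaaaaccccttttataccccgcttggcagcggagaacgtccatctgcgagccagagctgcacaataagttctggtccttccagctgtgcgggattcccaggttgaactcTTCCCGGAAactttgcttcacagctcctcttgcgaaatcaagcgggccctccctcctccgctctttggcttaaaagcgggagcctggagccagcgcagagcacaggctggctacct

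The hepcidin start regions were identical at 227 of 247 aligned bases, 91.9%. GGCGCC stood in the Hamp window and not in that of Hamp2, where the substitution G-106A, counted back from the Hamp start, breaks it. TTCNNNGAA stood in both, as TTCTTGGAA, and in that of Steap4 as TTCCCGGAA. Among 32851 windows of the same length, 9.59% held GGCGCC and 7.02% held TTCNNNGAA. Of the other members with a window, GGCGCC was found in 1 of the 2 windows of Tfrc, and neither pattern in those of Hfe, Tfr2, Cp and Bmp6. These matches are descriptions of the letters and not evidence of binding.

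Iron-responsive elements were searched for as a bulged C, 5 paired bases and the loop CAGTGN in annotated untranslated regions of GENCODE M21, on GRCm38, in the direction of transcription. A match was found in 175 of 21500 genes, 0.814%, and among the members in Tfrc and Slc40a1. The loop is in capitals. The Slc40a1 element lies in the 5′ untranslated region, on the minus strand at chr1:45925466-45925492. The 4 Tfrc elements lie in the 3′ untranslated region, on the plus strand at chr16:32631220-32631246, chr16:32631599-32631625, chr16:32631664-32631690 and chr16:32631711-32631737, in the order given.
Slc40a1: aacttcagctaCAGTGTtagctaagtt
Tfrc 1: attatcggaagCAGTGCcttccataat
Tfrc 2: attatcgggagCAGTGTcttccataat
Tfrc 3: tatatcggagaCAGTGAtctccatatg
Tfrc 4: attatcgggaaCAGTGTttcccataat

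Between treated and control livers, Steap4 and Tfrc were higher and Hamp2, Slc40a1 and Tfr2 lower, and Hfe was higher by a smaller amount. Thus 3 members were called higher, where 9.36% of all genes were, and 3 lower, where 8.47% of all genes were. Between treated and model livers, 1 member was called higher, Steap4, where 5.21% of all genes were. In that comparison 3 were called lower, Hamp2, Slc40a1 and Tfr2, where 4.44% of all genes were. Between model and control livers, Hfe and Steap4 were called higher, 2 members where 0.519% of all genes were, and no member was called lower, where 0.596% of all genes were. By DESeq2, limma with voom weights and limma on FPKM, 0 members were also lower in that comparison, and 1 member, Hamp2, was lower at an unadjusted p under 0.05 in edgeR.

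The CPM ranges of the libraries did not overlap for 8 of the 10 members between treated and control livers, against 37.3% of all genes. They did not overlap for 7 members between treated and model livers, against 31.2% of all genes, and for 3 between model and control livers, against 20.0% of all genes. Between treated and model livers, Bmp6 and Hfe were apart in CPM but overlapped in FPKM, as given below. Trf and Cp overlapped in CPM, but in summed transcript FPKM their treated libraries lay above all others. The median log2 fold change over the members was -0.23 for treated over control, -0.49 for treated over model and 0.10 for model over control, beside -0.01, 0.01 and -0.00 over all genes tested. Since the members were chosen with results of these data known, these counts and medians describe them and are no test.

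**Figure D1:**
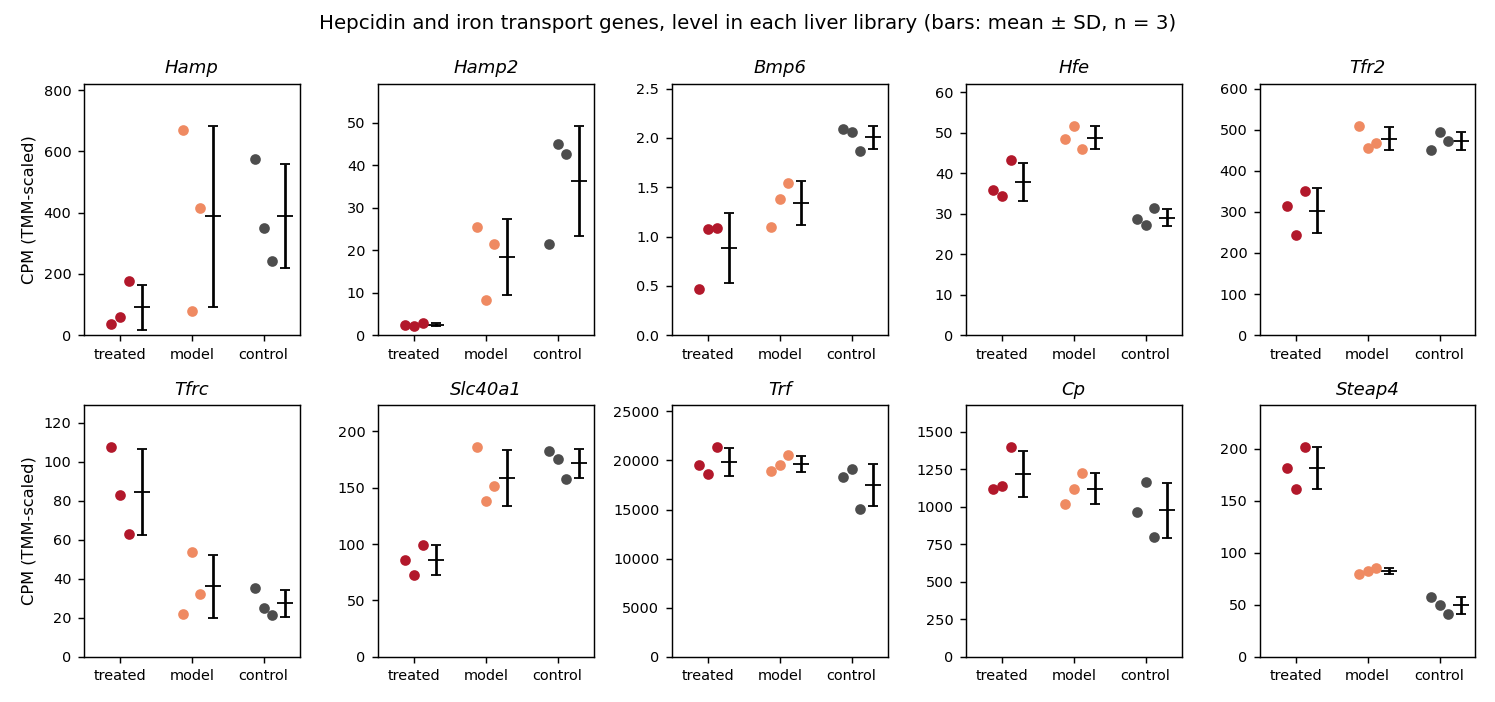
Level of each of the 10 genes in CPM (vertical axis of each panel, starting at 0) in the 3 treated, 3 model and 3 control libraries (points), with the mean and SD as bars. Steap4 and Tfrc stand highest in the treated livers, Hamp2, Slc40a1 and Tfr2 lowest there, and the groups overlap for Trf and Cp.

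Compared per length, as FPKM summed over the transcripts of a gene, Trf was the most abundant member in every group, with 7498 ± 461 FPKM in treated, 6573 ± 463 FPKM in model and 5678 ± 688 FPKM in control livers. Hamp came next in model livers with 796 ± 589 FPKM and in control livers with 790.4 ± 368 FPKM. In treated livers Hamp averaged 209.9 ± 168 FPKM and stood below Cp at 324 ± 30.7 FPKM, although treated library 3, at 402 FPKM of Hamp, lay above all 3 Cp values. The order below these also differed between groups. Hamp2 averaged 5.56 ± 0.759 FPKM in treated livers, the next to lowest member there, against 36.3 ± 17.0 FPKM in model and 70.0 ± 23.3 FPKM in control livers. Steap4 averaged 55.5 ± 5.77 FPKM in treated livers, above Slc40a1 at 24.6 ± 3.53 FPKM, whereas it averaged 22.4 ± 1.43 FPKM in model livers and 13.0 ± 2.48 FPKM in control livers, below Slc40a1 in both. Tfr2, at 109.7 ± 20.7, 153 ± 1.88 and 148 ± 2.34 FPKM in treated, model and control livers, stood next below Hamp and Cp in each group. Several neighbours in the order overlapped between libraries of a group. In treated livers these were Cp and Hamp, Hamp and Tfr2, and Slc40a1 and Tfrc, the last at 18.5 ± 5.43 FPKM. In model livers they were Hamp and Cp, Slc40a1 and Hamp2, and Hamp2 and Steap4, with Slc40a1 at 40.2 ± 4.67 FPKM. In control livers they were Hamp2 and Slc40a1, and Hfe and Tfrc, the last pair at 6.83 ± 0.556 and 5.79 ± 0.996 FPKM. Bmp6 was lowest in all groups, at 0.233, 0.319 and 0.460 FPKM on average in treated, model and control livers.

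Of the hepcidin genes, Hamp encodes the iron-regulating hormone, and Hamp2 is its copy in the mouse, whose overexpression did not lower iron in transgenic mice as that of Hamp did. They are neighbours on chromosome 7, at chr7:30942368-30944032 for Hamp and chr7:30922372-30924181 for Hamp2, both on the minus strand of GRCm38. Hamp2 had 2.38, 2.14 and 2.83 CPM in treated livers, 25.4, 8.24 and 21.4 CPM in model livers and 21.5, 45.1 and 42.6 CPM in control livers. All treated values lay below every other library, and the model and control ranges overlapped. Hamp2 fell 14.9-fold in treated against control livers (log2 fold change -3.89, SE 0.48, adjusted p = 0.00151). Against model livers it fell 7.48-fold (log2 fold change -2.90, SE 0.46, adjusted p = 0.00885), a call lost with voom weights at an adjusted p of 0.0728. Between model and control livers the log2 fold change was -0.99 (SE 0.43, adjusted p = 0.357).

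Hamp had 37.2, 58.3 and 175.6 CPM in treated livers, 670.1, 80.1 and 414.3 CPM in model livers and 573.9, 350.6 and 240.7 CPM in control livers. Every treated library lay below every control library, while model library 2 lay inside the treated range. The log2 fold change of Hamp was -2.10 (SE 0.92, adjusted p = 0.174) for treated over control and -2.10 (SE 0.92, adjusted p = 0.227) for treated over model, neither past the threshold. Its adjusted p for treated over control ran from 0.0477, with DESeq2, to 0.363 over the alternatives. Model and control livers averaged 388.2 ± 295.9 and 388.4 ± 169.8 CPM, a log2 fold change of -0.00 (SE 0.88). Its SE was the widest among the members.

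The copies share most of their sequence, 388 of 410 aligned transcript bases, 94.6%, with a longest identical run of 87 bases, so reads can be assigned to the wrong copy and both values are uncertain. The Hamp count was 15.6, 27.3 and 62.0 times the Hamp2 count in treated livers, 26.4, 9.72 and 19.4 times in model livers and 26.6, 7.78 and 5.66 times in control livers. Hamp2 therefore made up 1.59% to 6.01% of both in treated, 3.65% to 9.33% in model and 3.62% to 15.0% in control livers. With the counts of both genes summed, the log2 fold change was -2.20 for treated over control (adjusted p = 0.145) and -2.13 for treated over model (adjusted p = 0.203), neither past the threshold. In control livers, library 1 had the most Hamp and the least Hamp2, whereas in treated and in model livers the library with the most Hamp also had the most Hamp2. Of the Hamp2 transcripts, that of 437 bases held 0.0%, 44.6% and 5.1% of the gene's FPKM in treated livers, 45.1% to 46.3% in model and 45.3% to 47.1% in control livers. The rest was assigned to the transcript of 420 bases. Both have 3 exons and share the boundary at base 30924181, and their other boundaries lie at 30922372 and 30922389. The treated libraries held 162, 140 and 180 counts of Hamp2, so the division between the transcripts is an estimate and is uncertain.

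**Figure D2:**
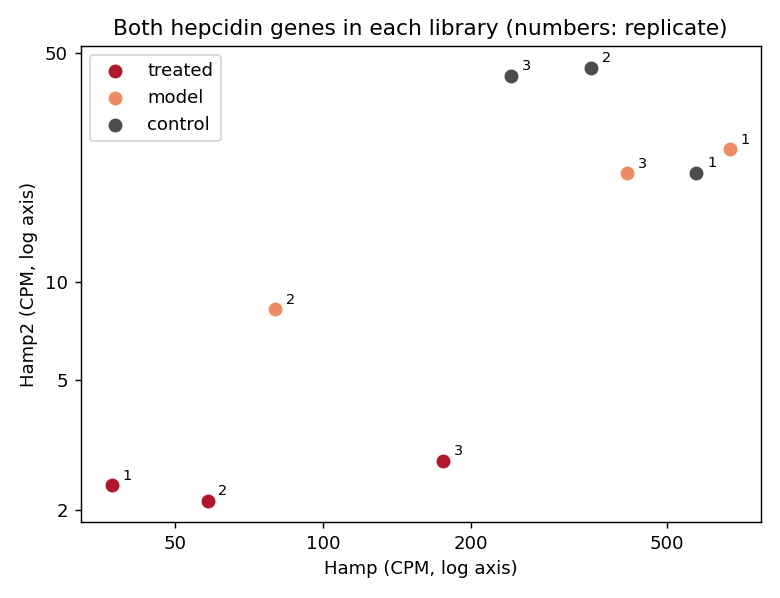
Hamp2 (vertical axis, CPM, log scale) against Hamp (horizontal axis, CPM, log scale) in each of the 9 libraries, numbered by replicate. The treated libraries lie at 2.14 to 2.83 CPM of Hamp2 while their Hamp runs from 37.2 to 175.6 CPM.

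Upstream of hepcidin stand Bmp6, a ligand of BMP receptors, and the hepatocyte membrane proteins Hfe and Tfr2, which take part in sensing transferrin-bound iron and are mutated in hereditary iron overload. Bmp6 had 0.469, 1.08 and 1.09 CPM in treated livers, 1.10, 1.38 and 1.54 CPM in model livers and 2.09, 2.06 and 1.87 CPM in control livers. In CPM no ranges overlapped between any pair of groups, with control livers highest and treated livers lowest. Treated and model livers were barely apart, at 1.09 against 1.10 CPM. In summed transcript FPKM, which is not TMM-scaled, they overlapped, with up to 0.287 in treated and from 0.25 in model livers. The log2 fold change was -1.19 for treated over control (SE 0.39, adjusted p = 0.0563), which missed the threshold, and over the alternatives its adjusted p ran from 0.0213 with DESeq2 to 0.152. The log2 fold change was -0.61 for treated over model (SE 0.38, adjusted p = 0.379) and -0.58 for model over control (SE 0.38, adjusted p = 0.563). These values rest on 32, 71 and 69 counts in treated, 61, 83 and 88 counts in model and 117, 107 and 100 counts in control libraries. Bmp6 shares 224 exon bases with Txndc5 on the opposite strand, which averaged 163 CPM in treated, 161 CPM in model and 145 CPM in control livers, and since the strand setting of the counting is not given, its low counts are uncertain. Sinusoidal endothelial cells are a known source of Bmp6, and all 10 of their markers were lower in treated than in control livers. All 10 were called lower, where 8.47% of all genes were. In bulk RNA, fewer cells of a type and less RNA per cell cannot be told apart, and the part of the endothelial markers in the Bmp6 values was not tested.

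Hfe had 35.8, 34.5 and 43.2 CPM in treated livers, 48.4, 51.8 and 46.1 CPM in model livers and 28.7, 27.1 and 31.3 CPM in control livers. In CPM the groups did not overlap, with model livers highest and treated livers between them and control livers. In summed transcript FPKM, which is not TMM-scaled, treated library 3 at 11.365 lay above model library 3 at 11.217, so treated and model livers overlapped. Hfe rose 1.68-fold in model against control livers (log2 fold change 0.75, SE 0.11, adjusted p = 0.0128). That call was lost without control library 2 (adjusted p = 0.0503) and without model library 2 (adjusted p = 0.0617). In treated against control livers it rose 1.30-fold (log2 fold change 0.38, SE 0.11, adjusted p = 0.0369), a call that 8 of 18 alternatives did not keep. Its adjusted p was 0.0901 and 0.117 without control library 1 or 2, 0.0571 and 0.131 without treated library 1 or 3, and 0.0523 without model library 1. For treated over model the log2 fold change was -0.37 (SE 0.11, adjusted p = 0.0629), past the threshold with DESeq2 (0.0411) and without treated library 3 (0.0356).

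Tfr2 had 313.6, 244.3 and 351.9 CPM in treated livers, 510.3, 456.8 and 468.9 CPM in model livers and 451.2, 494.6 and 472.9 CPM in control livers. Treated livers lay below all others, and model and control livers overlapped. Tfr2 fell 1.56-fold in treated against control livers (log2 fold change -0.64, SE 0.14, adjusted p = 0.00808). It fell 1.58-fold against model livers (log2 fold change -0.66, SE 0.14, adjusted p = 0.0127), a call lost without model library 1 at an adjusted p of 0.0537. Between model and control livers the log2 fold change was 0.02 (SE 0.13, adjusted p = 0.979). Tfr2 was spread over 7 transcripts that reached 1 FPKM in a library, and protein-coding ones held 84.0% to 88.9% of its FPKM.

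Tfrc, the receptor that takes transferrin-bound iron into cells, had 107.4, 82.9 and 63.2 CPM in treated livers, 22.0, 53.9 and 32.4 CPM in model livers and 35.4, 25.0 and 21.7 CPM in control livers. All treated libraries lay above all others. Tfrc rose 3.09-fold in treated against control livers (log2 fold change 1.63, SE 0.36, adjusted p = 0.0195). The call was lost without control library 2 (adjusted p = 0.0734), control library 3 (0.0696) or treated library 1 (0.0635). Against model livers the log2 fold change was 1.23 (SE 0.36, adjusted p = 0.0756), not past the threshold, with adjusted p between 0.000839, with DESeq2, and 0.208 over the alternatives. It was called in 3 of them, DESeq2, FPKM values and the fit without model library 2, where it was 0.0194. Between model and control livers the log2 fold change was 0.40 (SE 0.35, adjusted p = 0.71). Erythroid precursors also express Tfrc, and 8 erythroid markers summed to 348.7 to 585.2 CPM in treated, 861.1 to 1981.2 CPM in model and 652.5 to 948.8 CPM in control livers. Within the treated livers, library 3 was lowest in both Tfrc and this sum, and the part of erythroid cells in the Tfrc values was not tested. Of those markers, Epb42 was at 0 in 5 of the 9 libraries.

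The Tfrc transcripts with at least 1 FPKM in a library were the coding message of 19 exons and 4890 bases and a retained-intron transcript of 5 exons at chr16:32624442-32632790. The coding transcript had 15.5, 15.6 and 7.58 FPKM in treated livers, 1.03, 8.78 and 4.59 FPKM in model livers and 4.90, 0.30 and 1.17 FPKM in control livers. Treated library 3 lay below model library 2, so treated and model livers overlapped, while all treated values lay above the control range. The retained-intron transcript had 9.06, 0.92 and 6.13 FPKM in treated, 3.63, 1.27 and 1.50 FPKM in model and 1.77, 5.18 and 3.45 FPKM in control livers, and these ranges overlapped. The coding share of the Tfrc FPKM went from 5.2% in control library 2 to 94.0% in treated library 2. The 2 transcripts share their last exons, where the iron-responsive elements lie, so the division between them is an estimate and is uncertain.

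**Figure D3:**
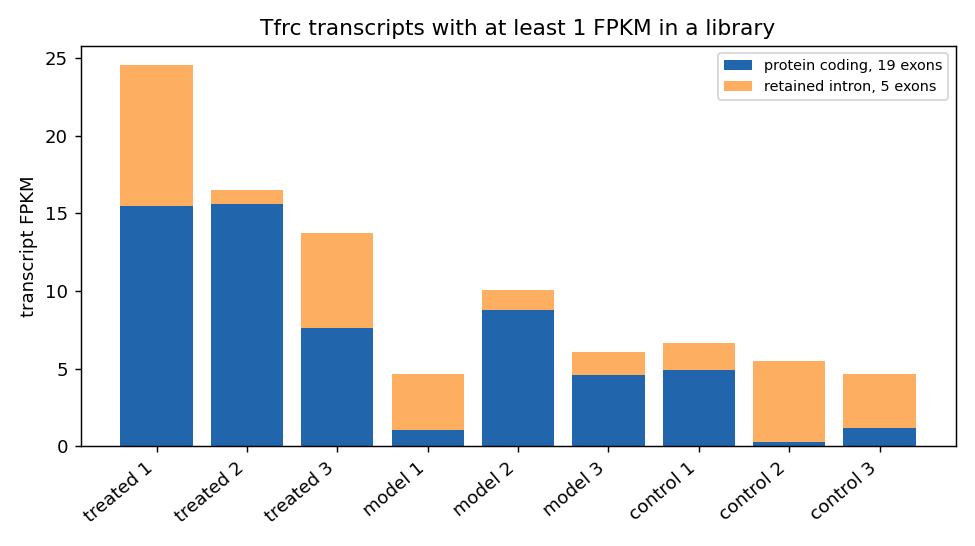
Transcript FPKM of Tfrc (vertical axis, stacked from 0) in each library, with the coding and the retained-intron transcript in different colours. The coding transcript reaches 15.5 and 15.6 FPKM in treated libraries 1 and 2 and 0.30 FPKM in control library 2.

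Slc40a1, whose product ferroportin moves iron out of hepatocytes and macrophages, had 85.5, 72.7 and 98.8 CPM in treated livers, 185.7, 137.8 and 151.7 CPM in model livers and 182.4, 175.4 and 157.4 CPM in control livers. All treated libraries lay below all others, and model and control livers overlapped. Slc40a1 fell 2.00-fold in treated against control livers (SE 0.14 on the log2 scale, adjusted p = 0.00098). Against model livers it fell 1.85-fold (log2 fold change -0.89, SE 0.14, adjusted p = 0.00381), and both calls were kept in all 18 alternatives run for them. The log2 fold change for model over control was -0.12 (SE 0.14, adjusted p = 0.804). The coding transcript of 3370 bases, which carries the 5′ iron-responsive element, held 99.0% to 99.9% of its FPKM in each library. Kupffer cells, the resident liver macrophages, also express Slc40a1. Their 7 markers summed to 199.1 to 391.7 CPM in treated, 221.8 to 266.2 CPM in model and 141.7 to 242.3 CPM in control livers, with overlapping ranges. In treated against control livers 2 of the 7 were called higher, where 9.36% of all genes were, Marco 6.18-fold (adjusted p = 0.00734) and Folr2 1.75-fold (adjusted p = 0.0475). None, 0 of the 7, was called lower, where 8.47% of all genes were, also at an unadjusted p under 0.05 in edgeR and in DESeq2 and limma. Their part in the Slc40a1 values was not tested.

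Trf, the plasma carrier of iron, was abundant in all groups. It had 19553, 18572 and 21338 CPM in treated livers, 18875, 19500 and 20553 CPM in model livers and 18331, 19145 and 15023 CPM in control livers, and in CPM the groups overlapped. In summed transcript FPKM, which is not TMM-scaled, all treated libraries lay above all others. The lowest treated value was 6975, the highest model value 6937 and the highest control value 6151 FPKM. The log2 fold change of Trf was 0.18 (SE 0.12, adjusted p = 0.352) for treated over control, 0.01 (SE 0.12, adjusted p = 0.969) for treated over model and 0.17 (SE 0.12, adjusted p = 0.613) for model over control. For treated over control, Trf was called on log2(FPKM + 1) values, at 0.41 (adjusted p = 0.0402) where the median of all genes lay at 0.09. It was also called with library totals only, at 0.39 (adjusted p = 0.0281) where that median lay at 0.20. Protein-coding transcripts held 99.8% to 99.9% of its FPKM.

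Cp, ceruloplasmin, is the copper-carrying ferroxidase of plasma that oxidises iron for loading onto transferrin. It had 1121, 1139 and 1398 CPM in treated livers, 1021, 1117 and 1225 CPM in model livers and 966.3, 1168 and 801.8 CPM in control livers. In CPM the groups overlapped. In summed transcript FPKM all treated libraries lay above all others, the lowest at 303.1 against up to 299.3 in model and 264.7 in control livers. The log2 fold change of Cp was 0.32 (SE 0.15, adjusted p = 0.184) for treated over control, 0.12 (SE 0.15, adjusted p = 0.699) for treated over model and 0.20 (SE 0.15, adjusted p = 0.647) for model over control. Cp too was called for treated over control on log2(FPKM + 1) values, at 0.54 (adjusted p = 0.028), and with library totals only, at 0.53 (adjusted p = 0.0209).

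Steap4, a membrane reductase of iron and copper that is induced in inflammation, had the smallest adjusted p among the members in both comparisons of treated livers. It had 181.4, 160.9 and 201.1 CPM in treated livers, 79.6, 82.7 and 84.9 CPM in model livers and 57.6, 49.6 and 40.8 CPM in control livers. The groups did not overlap, with treated livers highest and control livers lowest. Steap4 rose 3.67-fold in treated against control livers (log2 fold change 1.88, SE 0.14, adjusted p = 2.05e-05). In treated against model livers it rose 2.20-fold (log2 fold change 1.14, SE 0.13, adjusted p = 0.000666), and both calls were kept in all 18 alternatives. In model against control livers it rose 1.67-fold (log2 fold change 0.74, SE 0.13, adjusted p = 0.0282), which 7 of 18 alternatives did not keep. Among these were FPKM values (adjusted p = 0.0528), the fits without control library 2 (0.0861) or 3 (0.0687), and those without model library 1 (0.0653), 2 (0.0953) or 3 (0.10). Markers of phagocytic macrophages, 6 in all, moved with it, at 628.3 to 852.7 CPM in treated, 57.5 to 115.0 CPM in model and 18.6 to 22.7 CPM in control livers. Of these markers, 6 of 6 were called higher in treated than in control livers, where 9.36% of all genes were, and Trem2 was at 0 in 1 control library. Their part in the Steap4 values was not tested.

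**Figure D4:**
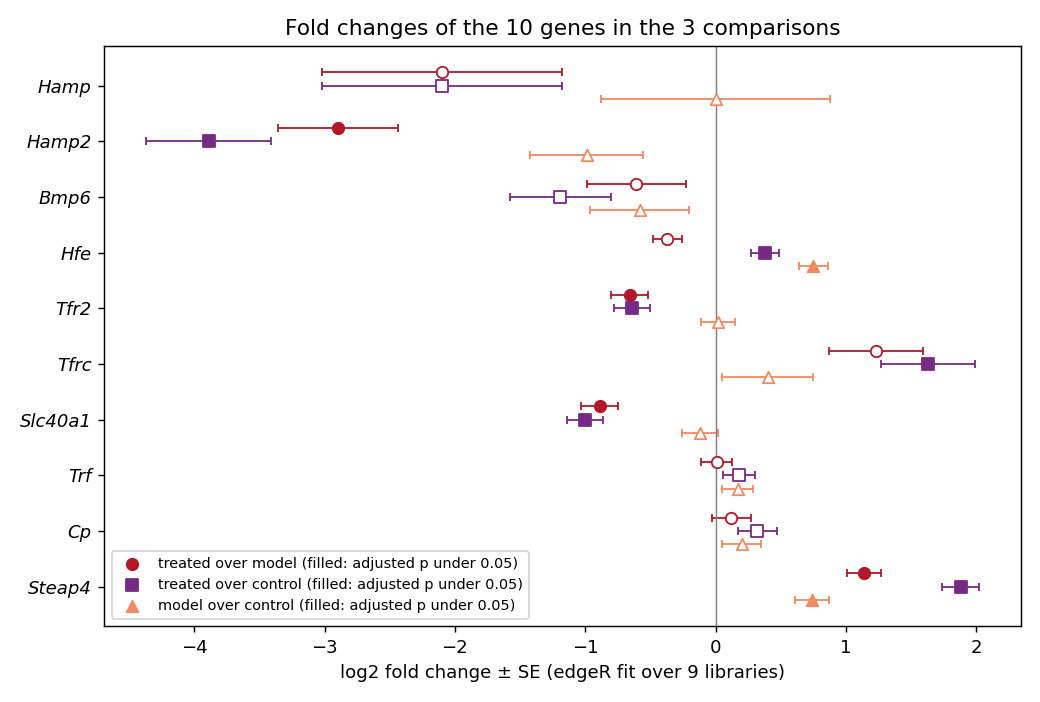
Fold change of each of the 10 genes on the log2 scale with its SE (horizontal axis), for treated over control, treated over model and model over control, as fitted by edgeR over 9 libraries. Steap4 and Tfrc lie to the right of 0 and Hamp2, Slc40a1 and Tfr2 to the left in both treated comparisons, while the error of Hamp reaches 0.92.

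Among 20 other genes of hepcidin's BMP-SMAD pathway, 19 were tested. In treated against control livers 1 was called higher and 4 lower, where 17.8% of all genes were called, with a list median of -0.31. Bmp2, an endothelial ligand that drives hepcidin, had 1.97, 2.28 and 2.60 CPM in treated livers, 3.35, 3.70 and 4.41 CPM in model livers and 12.5, 9.48 and 15.4 CPM in control livers. It fell 5.45-fold in treated against control livers (adjusted p = 9.77e-05) and 3.26-fold in model against control livers (adjusted p = 0.00837), beside the lower endothelial markers given above. All 10 of those markers were also lower in model than in control livers, and 7 were called lower, where 0.596% of all genes were. The part of those markers in the Bmp2 values was not tested. Smad6 and Smad7, inhibitory SMADs that are themselves BMP targets, fell by 1.31 and 0.77 on the log2 scale in treated against control livers (adjusted p = 0.0203 and 0.0465). The part of the endothelial markers in the Smad6 and Smad7 values was not tested either. Tmprss6, the hepatocyte protease that restrains hepcidin, fell by 0.48 on the log2 scale (adjusted p = 0.0212), and Fgl1, a secreted liver protein that antagonises BMP signalling in mice, rose 2.20-fold (adjusted p = 0.0115). Id1, another BMP target, averaged 5.96 CPM in treated, 2.88 CPM in model and 7.55 CPM in control livers and was not called. Nor were Id2, Id3 and Atoh8 of this list, with log2 fold changes of -0.60, -0.08 and -0.34 for treated over control. Hjv, the BMP co-receptor hemojuvelin, was not called either, at 58.8 CPM in treated, 81.1 CPM in model and 96.7 CPM in control livers, and skeletal muscle also expresses it, so the muscle markers of the treated libraries and model library 1 stand beside it. Of these markers, Ckm, Tnni2 and Pvalb were at 0 in all 3 control libraries, and their part in the Hjv values was not tested. Between treated and model livers 1 gene was called lower, the receptor Acvr1 (log2 fold change -0.48, adjusted p = 0.0445), where 9.65% of all genes were called. Between model and control livers Fgl1 rose and Bmp2 fell, 2 of 19 where 1.12% of all genes were called. The list's medians in these comparisons were -0.19 and -0.22.

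Of 11 genes of the interleukin-6 and STAT3 route, 10 were tested. Il6 itself did not pass the filter on low counts, with 0, 11 and 4 counts in all in the treated, model and control libraries. In treated against control livers Stat3, the transcription factor itself, rose by 0.50 on the log2 scale (adjusted p = 0.0384), and the receptor genes Lifr and Il6st fell by 1.02 and 0.63 (adjusted p = 0.0156 and 0.00441). Osmr, the oncostatin M receptor, averaged 5.60 CPM in treated, 2.20 CPM in model and 5.43 CPM in control livers. It rose in treated against model livers (log2 fold change 1.35, adjusted p = 0.0115) and fell in model against control livers (log2 fold change -1.30, adjusted p = 0.049). Socs3, a feedback target of STAT3, was not called, at 17.4 CPM in treated, 14.1 CPM in model and 16.9 CPM in control livers. The medians were -0.04, 0.24 and -0.36 for treated over control, treated over model and model over control, beside -0.01, 0.01 and -0.00 over all genes.

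Of 8 genes of iron storage and its regulation, 1 was called higher and 2 lower in treated against control livers, where 9.36% of all genes were higher and 8.47% lower. Fth1, the ferritin heavy chain, had 2606, 2498 and 2322 CPM in treated livers, 1941, 1985 and 2001 CPM in model livers and 1362, 1451 and 1595 CPM in control livers. It rose 1.68-fold (log2 fold change 0.75, adjusted p = 0.000954), and the groups did not overlap. Ireb2, which encodes iron regulatory protein 2, fell in treated against control livers (log2 fold change -0.51, adjusted p = 0.0112) and against model livers (log2 fold change -0.46, adjusted p = 0.0302). Pcbp2, an iron chaperone, fell by 0.35 on the log2 scale (adjusted p = 0.0303). The list's medians were 0.12, 0.10 and 0.04. Between model and control livers 0 of its genes were called in edgeR, where 1.12% of all genes were. In that comparison 1 was higher at an unadjusted p under 0.05, DESeq2 called 1, and limma called 0.

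Among iron import and reduction genes, 8 of 9 were tested. Lcn2, lipocalin 2, binds bacterial siderophores and is an acute-phase protein. It had 774.7, 449.5 and 603.2 CPM in treated livers, 60.3, 86.0 and 65.6 CPM in model livers and 4.15, 18.9 and 11.1 CPM in control livers. Lcn2 rose 53.5-fold in treated against control livers (adjusted p = 0.00102) and 8.62-fold against model livers (adjusted p = 0.014), and the groups did not overlap. Slc39a8, a metal importer, fell in treated against control livers (log2 fold change -0.74, adjusted p = 0.00171) and in model against control livers (log2 fold change -0.70, adjusted p = 0.0206). Slc39a14, the importer of iron not bound to transferrin in hepatocytes, averaged 291.6, 291.4 and 247.1 CPM in treated, model and control livers and was not called. List medians were -0.02, 0.10 and -0.08.

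Of 10 genes that handle heme and hemoglobin, 7 were called higher and 1 lower in treated against control livers, where 9.36% of all genes were higher and 8.47% lower. The list median was 0.86, beside -0.01 over all genes. Hpx, hemopexin, the plasma carrier of heme, had 8874, 7221 and 9606 CPM in treated livers, 4656, 6870 and 6916 CPM in model livers and 3251, 2636 and 3392 CPM in control livers. It rose 2.77-fold in treated and 1.99-fold in model against control livers (adjusted p = 0.000412 and 0.0286). Hp, haptoglobin, which binds free hemoglobin, rose in both comparisons (log2 fold change 0.93 and 0.83, adjusted p = 0.000684 and 0.0128). Slc48a1, a heme transporter, and Hmox1, the heme-degrading oxygenase, rose 2.85-fold and 2.49-fold in treated against control livers, and 1.86-fold and 1.69-fold against model livers (adjusted p = 0.0229 and 0.0258). Blvrb, Blvra and Flvcr1 were the other genes called higher in treated against control livers, and Blvrb was also called higher against model livers (adjusted p = 0.0195). Lrp1, a receptor for heme-bound hemopexin, was lower in treated than in control livers (log2 fold change -0.43, adjusted p = 0.0455). The phagocytic macrophage markers moved in the direction of the genes called higher in treated against control livers, and their part was not tested. In treated against model livers, 5 of the 6 markers were called higher, where 5.21% of all genes were. In that comparison Slc48a1, Hmox1 and Blvrb were called higher, and Hp, Hpx, Blvra and Flvcr1 were not. The log2 fold change there was 0.10 for Hp and 0.48 for Hpx (adjusted p = 0.695 and 0.121).

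Of 14 genes of heme synthesis and mitochondrial iron, 0 were called by edgeR in treated against model livers or in model against control livers, where 9.65% and 1.12% of all genes were. At an unadjusted p under 0.05, 3 were lower in treated than in model livers and 2 higher in model than in control livers. DESeq2 called 2 in the first of these comparisons and 0 in the second, and limma called 0 in both. In treated against control livers 2 of the 14 fell, where 8.47% of all genes did. They were Ppox and Fech, which act late in heme synthesis (log2 fold change -0.40 and -0.49, adjusted p = 0.0243 and 0.0152). Of the 14, 0 rose in edgeR, where 9.36% of all genes did, and 0 rose at an unadjusted p under 0.05 or in DESeq2 and limma. The medians were -0.06, -0.13 and 0.02.

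**Figure D5:**
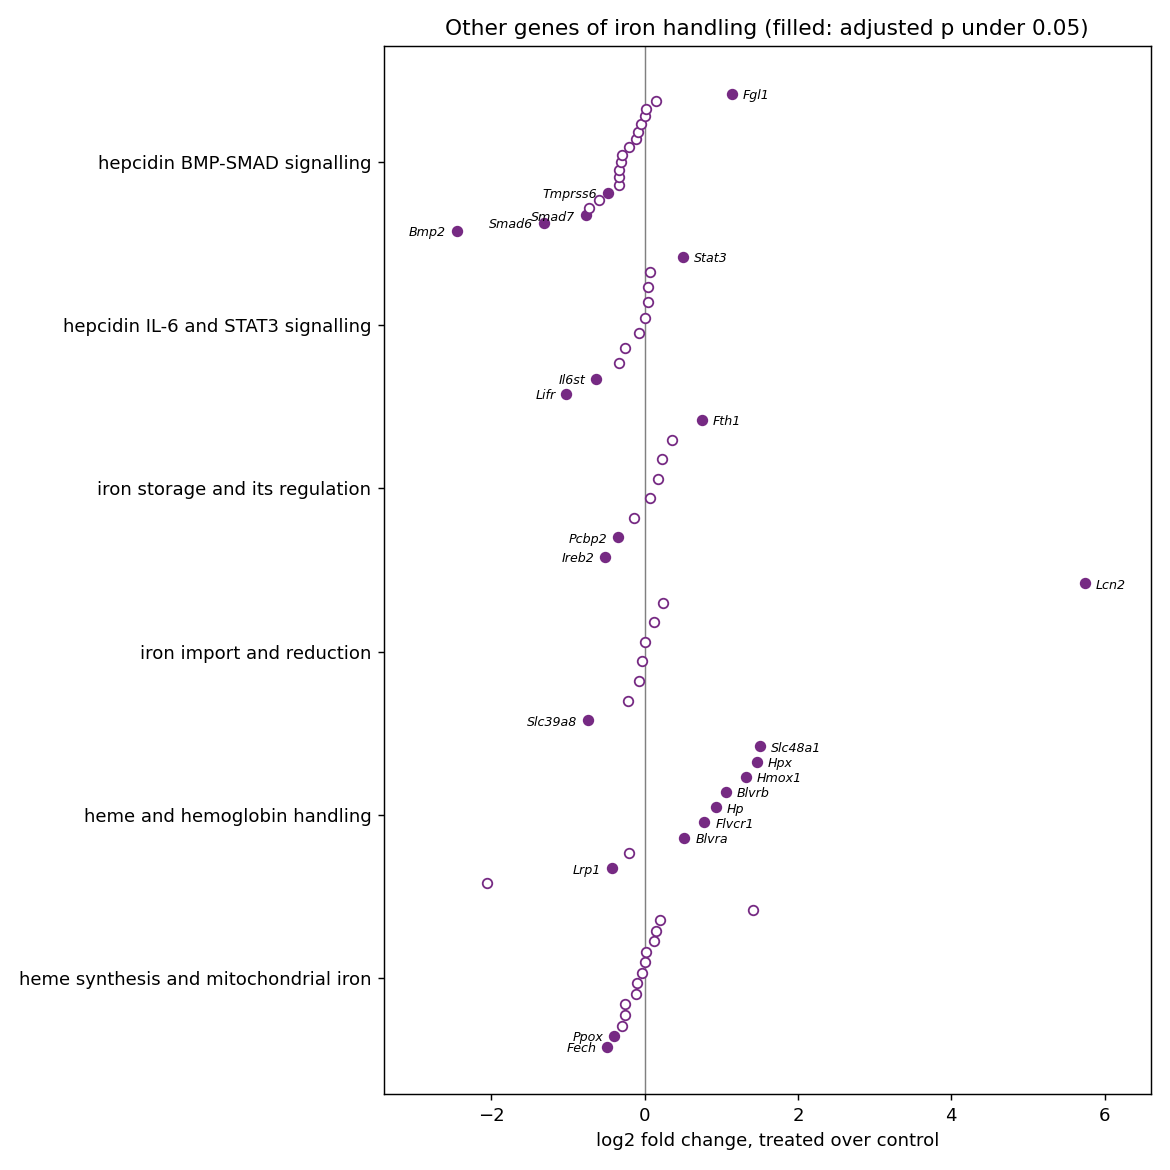
Fold change of treated over control livers on the log2 scale (horizontal axis) for each tested gene of the 6 lists of iron handling genes, with called genes filled and named. Lcn2 lies farthest to the right at 5.74 and Bmp2 farthest to the left at -2.45, and 7 of 10 genes of heme and hemoglobin handling are called higher, where 9.36% of all genes are.

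Across the 9 libraries, the genes with levels most like those of 4 members were ranked by Pearson's r of log2 levels over about 9440 genes of at least 5 CPM. These values are descriptions, and the libraries share their group structure. For Hamp they were Brca2 (r = 0.959), Pex7 (0.956) and Rmdn1 (0.945). For Slc40a1 they were Aspg (0.984), Serpinf1 (0.979) and Pdcd4 (0.979). For Steap4 they were Hk3 (0.993), Ccdc120 (0.990) and Cd52 (0.989), and for Bmp6 Fgf1 (0.967), Cab39l (0.964) and Dock9 (0.954).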

How the data were processed

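Polyadenylated mouse liver RNA was sequenced in 3 treated, 3 model and 3 control libraries, grouped by the treatment label. HISAT2, an aligner, is named in the submitters' processing notes. Its version, the program that made the counts, the use of strand and the gene models were not given in the sources used here. Per the file headers, the authors supplied estimated counts and FPKM for genes and for transcripts. The deposited estimated counts equal FPKM times length times a constant of each library, so they are estimates from coverage, and near-identical or overlapping genes divide reads by estimation. The gene FPKM deposited by the authors is spread over the merged exons of all isoforms, 9000 bases for Slc40a1 against 3370 for its main transcript, so levels between genes were compared by summed transcript FPKM, which is not TMM-scaled. GENCODE M21 (GRCm38) held 27859 of the 27945 gene IDs with counts, 25083 of them with identical start and end, and coordinates are GRCm38.

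Gene counts were fitted with edgeR 4.0.16 in R 4.3.3 (quasi-likelihood, robust, TMM, filterByExpr with a minimum count of 10 and total of 15) in 1 fit of 9 libraries, and fold changes with SE are those of this fit. The procedure was tested on simulated data. Alternatives were DESeq2 1.42.0, limma 3.58.1 on voom values and on log2(FPKM + 1), other filters and scalings, the 2 groups compared alone, a replicate block, both hepcidin counts summed, and each library left out. Library totals were 56440871 to 60665156 estimated counts, and of the members Bmp6 rests on the fewest. The members, the lists of pathway genes and of cell type markers, and the likeness measure were chosen with earlier results of these data known. Within a list the text names at most 4 called genes of largest change per comparison. Tmprss6, Id1, Id2, Id3, Atoh8, Hjv, Il6, Socs3, Slc39a14, Blvra, Flvcr1 and Lrp1 were named beside them after their values were seen. Start regions come from the RefSeq table, where 8 of the 10 members had an entry.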

Additional observations from a re-analysis of the deposited data

How the results depend on the processing

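The genes called between model and control livers numbered 202, against 871 with DESeq2, 120 with the replicate block and 119 on FPKM values. Between treated and model livers they numbered 1748, against 2742 with DESeq2. With single libraries left out they ran from 54 to 213 for model against control, 882 to 1660 for treated against model and 2169 to 2996 for treated against control. The first count was 92 and 82 without control library 2 or 3 and 109, 54 and 80 without model library 1, 2 or 3. The second was 882 and 972 without model library 1 or 3 and 995 and 1093 without treated library 1 or 3. Members called higher between model and control livers numbered 2, against 1 with the replicate block and 1 on FPKM values, and 0 to 2 with libraries left out, 0 of them without control library 2 or model library 2. Members called higher between treated and model livers numbered 1, against 2 with DESeq2 and 2 on FPKM values, and 1 to 2 with libraries left out, while 3 were lower, against 2 to 4. Between treated and control livers 3 were higher, against 5 on FPKM values, 5 with library totals in place of TMM scaling, an alternative chosen after seeing the data, and 1 to 3 with libraries left out, 1 without control library 2 or treated library 1. In that comparison 3 were lower, against 5 with DESeq2. The sign of 4 fold changes that were not called changed in some alternative. Hamp between model and control livers was at 0.006 with DESeq2, 0 without a filter and 0.013 with library totals, and ran from -0.652 to 0.489 with libraries left out. In the same comparison Tfrc ran from -0.001 to 0.657 and Tfr2 from -0.031 to 0.059. Trf between treated and model livers was at -0.013 with upper-quartile scaling and ran from -0.042 to 0.058. The cause of these changes was not tested. Library totals moved the median of all genes to 0.20 (treated over control) and 0.17 (treated over model).

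Replicate numbers showed no pairing of the libraries, as deviations of same-numbered libraries correlated between -0.12 and 0.11. With 3 libraries per group, a weak pairing could go unseen. With the replicate block, Steap4 between model and control livers (adjusted p = 0.0629) and Hfe between treated and control livers (adjusted p = 0.0628) were no longer called, and no other member's call changed.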
